A study of Mus musculus with 6 samples.

Results

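The genes described here are the histone genes of RAW264.7 cells, a mouse macrophage-like line, chosen by gene symbol alone: symbols that start with H1f, H2a, H2b, H3, H4 or Hist followed by a cluster number, without pseudogene symbols that contain -ps. There were 52 such genes among the 16108 in the deposited table. A further split by symbol gave 35 genes of the replication-dependent clusters (H2ac, H2bc, H3c, H4c and Hist) and 17 others, called variants here. All cells were attached to acoustic devices overnight and cultured for a further 48 h, with the acoustics off in 3 libraries (the off libraries) and on in the other 3 (the on libraries). The drive signal had 18 V from peak to peak and a frequency of 5 kHz. No genetic change or drug is named for either group, and a petri-dish group was not analysed here. Nothing in the labels tells if a group's libraries are separate cultures. The p-values therefore cover the spread among the 6 libraries, and that spread could be technical.

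Histones package DNA into nucleosomes, each an octamer of H2A, H2B, H3 and H4 that a linker histone H1 can bind from outside. Replication-dependent histone genes lie in clusters, are transcribed in S phase to coat newly made DNA, and make mRNAs that have no poly(A) tail. Those mRNAs end instead just after a short stem-loop, which is bound by the stem-loop binding protein SLBP. Variant histones, among them H3.3, H2A.Z and the linker H1.0, are made throughout the cell cycle, mostly from polyadenylated mRNAs, and replace the canonical proteins at chosen places such as active genes.

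The split by symbol does not follow these definitions in every case. H1f1 to H1f5 and H4f16 count as variants by symbol although they are genes of the replication-dependent kind. H2aw, also a variant by symbol, has the cluster name Hist3h2a in GENCODE M21 and holds the stem-loop described below. GENCODE M21, on GRCm38, annotated 49 of the 52 members as protein-coding, Hist1h2al and H3f3c as processed pseudogenes, and H3f3aos as an RNA antisense to H3f3a. Of the 52 members, 32 lay on chromosome 13, 9 on chromosome 3, and the others on chromosomes 1, 2, 6, 9, 11 and 15.

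The stem-loop is shown because it separates the members by how their mRNAs can end. In the annotated transcripts of the 49 coding members, a stem GGNNCT, a loop TTTN and a second stem arm AGNNCC that pairs with the first (searched on the transcript strand) was found in 28 members (57.1%), against 0.224% of all 21877 protein-coding genes. A transcript annotated without its full 3′ end may not show the stem-loop. The most frequent form was shared by 13 members, H2ac18, Hist1h2ap and the linker gene H1f2 among them. A second form, with another base at the end of the loop, was that of H2bc12. The forms of H4c8 and of H2afx, which encodes the DNA damage histone H2A.X, had a stem with another pair. The 4 forms, as DNA and with the loop in capitals, were as follows.
H2ac18: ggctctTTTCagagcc
H2bc12: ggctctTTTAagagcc
H4c8: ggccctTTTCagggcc
H2afx: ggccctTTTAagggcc
Of the 28 members with a stem-loop, 9 had an annotated transcript that ended within 60 bases of it, and the others ran on further. The shortest distance was 3 bases, for Hist1h2ap, while it was 30 for H2bc12, 35 for H2ac18 and 46 for H4c8. A poly(A) signal (AATAAA or ATTAAA in the last 40 bases of a transcript) was annotated for 9 of 34 coding replication-dependent members (26.5%) and 10 of 15 coding variants (66.7%), against 76.1% of all protein-coding genes.

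Promoters are shown for the H2B genes that passed the test described below, since the octamer in them is a known H2B promoter element. The letters ATTTGCAT (octamer), CCAAT and TATAAA were searched on both strands in windows from 250 bases before to 50 after each start (RefSeq, GRCm38.p6), which were given for 44 of the 52 members, with a second window for H2bc6. No match of a motif overlapped a match of another in these windows. The octamer was in 8 of 30 replication-dependent windows (26.7%), against 1.74% of all 32851 windows. Windows of neighbours that start head to head overlap, so H2ac12 and H2bc12 count the same octamer, as do H2ac8 and H2bc8. CCAAT was in 24 of the 30, against 37.4% of all windows, and TATAAA in 15, against 13.6%. Among the 15 variant windows, 2 held the octamer, 11 CCAAT and 5 TATAAA. H2bc4 has no entry of its own, but it starts 251 bases from the H2A gene H2ac6, which runs in the opposite direction, so the H2ac6 window holds the start of H2bc4 near its 5′ end. The windows of H2bc12 (GRCm38, chr13:22035571-22035870, plus strand) and H2ac6 (chr13:23683910-23684209, minus strand) follow, with the 3 motifs in capitals.
H2bc12: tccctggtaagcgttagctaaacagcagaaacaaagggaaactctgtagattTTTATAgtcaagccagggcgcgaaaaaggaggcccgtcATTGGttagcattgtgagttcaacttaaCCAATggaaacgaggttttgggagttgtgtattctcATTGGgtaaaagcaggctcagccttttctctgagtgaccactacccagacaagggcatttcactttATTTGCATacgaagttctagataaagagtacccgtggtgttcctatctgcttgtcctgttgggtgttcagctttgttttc
H2ac6: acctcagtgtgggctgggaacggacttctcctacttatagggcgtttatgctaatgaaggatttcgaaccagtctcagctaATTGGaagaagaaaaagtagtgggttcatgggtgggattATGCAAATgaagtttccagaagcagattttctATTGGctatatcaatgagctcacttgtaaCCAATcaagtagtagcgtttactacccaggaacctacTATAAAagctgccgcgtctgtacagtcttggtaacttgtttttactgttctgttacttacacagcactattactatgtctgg
The octamer stood 30 bases before the H2bc12 start on the strand of that gene. In the H2ac6 window it stood 130 bases before the start on the other strand, which is the strand of H2bc4. Both windows also held 3 CCAAT matches and 1 TATAAA match. The TATAAA of the H2bc12 window stood 198 bases before the start, on the strand of its H2A neighbour H2ac12. That of the H2ac6 window stood 32 bases before the H2ac6 start, on the strand of H2ac6. Neither was thus on the strand of the H2B gene. A match describes these letters only.

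Levels are given as FPKM, fragments scaled to transcript length and library size, as deposited by the authors. Their mean normalised counts summed to about 45286000 per library, and the steps of the low values gave relative depths between 0.96 and 1.08. Genes were tested if 3 or more libraries reached 0.5 FPKM, and 11664 genes did. Acoustics-on replicate 1 stood apart: it lay at 58.8 on the first principal component, with the other 2 on libraries at 2.54 and 4.66 and the off libraries between -23.5 and -19.8. In that library the shortest quintile of tested genes had a median log2 difference of 0.49 from the acoustics-off mean and the longest quintile -0.59, while in acoustics-on replicate 3 these were -0.068 and 0.0041. Most replication-dependent histone mRNAs are short, so for some members the difference is also given with a trend on length divided out of each library or with acoustics-on replicate 1 left out. The macrophage markers fixed for the check were all tested, while the 5 fibroblast markers together reached at most 3.08 FPKM and the only epithelial marker listed, Krt8, at most 0.12. None of the 4 T cell markers was listed. Summed, the macrophage markers were between 27160 and 29330 FPKM in the off libraries and between 18795 and 26021 in the on libraries. Most of the sum was Lyz2, with means of 24695 and 19379 FPKM. Of those 7 genes 0 passed by limma (0 higher and 2 lower at an unadjusted p under 0.05, where 9.16% of all tested genes were lower). Csf1r, 1 of the 7, was lower in the authors' deposited table, where 2.49% of genes with an adjusted p were. For 5 of the 7 every on library was below every off library, against 17.7% of all tested genes. Their part in the histone results was not tested.

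Replication-dependent histone transcripts were sparse in both groups, and a few genes carried nearly all of them. Of the 35 genes, 23 had a mean below 1 FPKM over the 6 libraries, 18 below 0.5, and 6 reached 10. The median gene stood at 0.47 FPKM, against 4.90 for the 17 variants. Hist1h2ap, Hist1h2al, H2ac19 and H2ac18, all H2A by name, made up 85.9% of the summed FPKM of the class, and H2bc4 and H2bc12 brought this to 94.9%. The 8 H3 genes together summed to between 1.78 and 6.54 FPKM per library, and the 10 H4 genes to between 5.05 and 23.2. By contrast, the H3.3 genes H3f3a and H3f3b together summed to between 811.6 and 1052 FPKM. The labels give polyA RNA as the molecule but a ribosomal RNA depletion kit for the libraries, and the part of the library type in these levels was not tested. Of 16 other RNAs without a poly(A) tail that were looked for, 7 were listed, and these summed to between 151.6 and 254.5 FPKM in every library, most of it from the signal recognition particle RNA genes Rn7s1 and Rn7s2.

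By annotated 3′ end, the highest median level was that of variants with a poly(A) signal and no stem-loop. These 6 variants had a median of 216.8 FPKM, and the 4 with both features 20.1 FPKM. The 2 variants with a stem-loop alone had a median of 0.19 FPKM and the 3 with neither 0.30 FPKM, though H3f3b among those 3 averaged 324.6 FPKM. In the replication-dependent class, the median was 0.47 FPKM for the 17 genes with a stem-loop alone, 0.52 for the 5 with both, 0.36 for the 4 with a poly(A) signal alone and 0.44 for the 8 with neither. Neither can also mean an annotated transcript that stops before the 3′ end of the mRNA, which was not tested. The annotated transcripts of H2bc13 and H2bc18, both in that group, were 381 bases long, and that of H4c12 was 312. The range within a kind was wide. Among replication-dependent genes with a stem-loop alone it went from 0.045 FPKM for H3c7 to 180.5 FPKM for Hist1h2ap. These are descriptions over genes that share libraries and, often, reads.

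**Figure D1:**
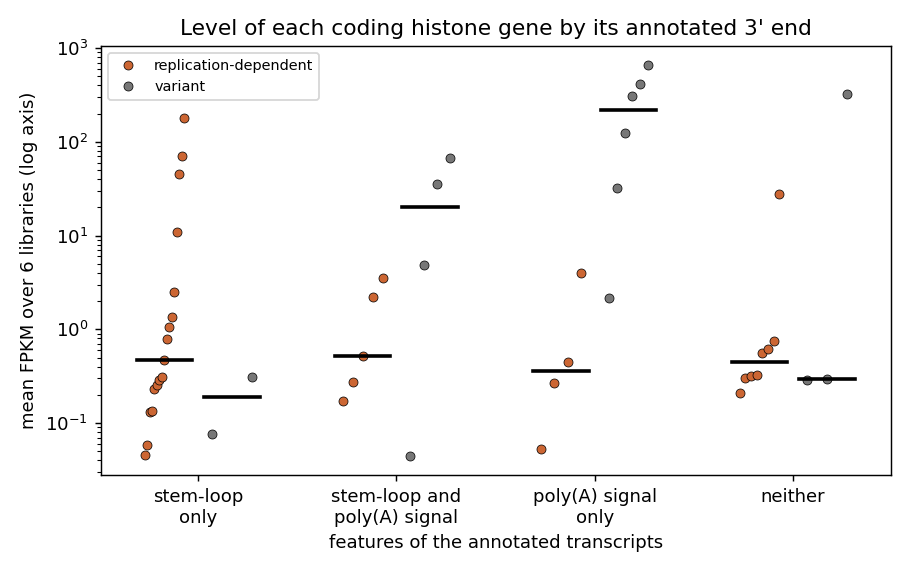
Mean FPKM over the 6 libraries (log axis) of each coding histone gene, grouped on the horizontal axis by whether its annotated transcripts hold the stem-loop, a poly(A) signal, both or neither; orange points are replication-dependent genes, grey points variants, and black bars medians. The 6 variants with a poly(A) signal alone have a median of 216.8 FPKM, while the replication-dependent medians lie between 0.36 and 0.52 FPKM in every group. Neither can also mean an annotated transcript that stops before the 3′ end.

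Reads of many of these genes cannot be assigned with certainty. The share of a gene's 31-base words that also occur in transcripts of another annotated gene had a median of 64.1% over the replication-dependent genes, and 24 of the 35 had at least 50% shared. Over the variants the median was 11.2%. H2ac18 and H2ac19, a pair of near-identical H2A genes, had 100% of their words elsewhere, Hist1h2ap 93.4%, H2bc12 75.3%, H4c8 50.0%, H2bc4 33.5% and H1f2 11.4%. All words of H2ac18 occurred in the annotated gene Gm20633 and all of H2ac19 in Gm20632. Whether such genes overlap the members at the same place in the genome was not tested. Values of single replication-dependent genes therefore depend on how the authors' counting split shared reads.

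The on and off libraries were compared to ask whether histone transcript levels differ after the acoustic treatment. Of the 35 replication-dependent genes, 18 passed the filter, 9 of them with at least 0.5 FPKM in all 6 libraries. The H2B genes H2bc4 and H2bc12 rose in the on libraries and 0 genes of the class fell (limma on log2(FPKM + 1), Benjamini-Hochberg adjusted p under 0.05), where 1.5% of all tested genes rose, 0.574% fell and 2.07% did either. The median log2 difference of the 18 was 0.39, with 12 above 0 and 6 below, against -0.027 over all tested genes. Of the 17 variants, 11 passed the filter, all with at least 0.5 FPKM in every library, and 0 rose and 0 fell by limma, while at an unadjusted p under 0.05 1 was higher and 1 lower. The same count for the replication-dependent genes was 4 higher and 2 lower, and over all tested genes 10.5% were higher and 9.16% lower at that p. In the authors' deposited table, 4 replication-dependent genes were higher and 0 lower at an adjusted p under 0.05, and among the variants 1 was higher and 1 lower, where 5.08% of all genes with an adjusted p there were higher, 2.49% lower and 7.56% either. In these bulk samples, more cells in S phase and more histone RNA per cell cannot be told apart.

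**Figure D2:**
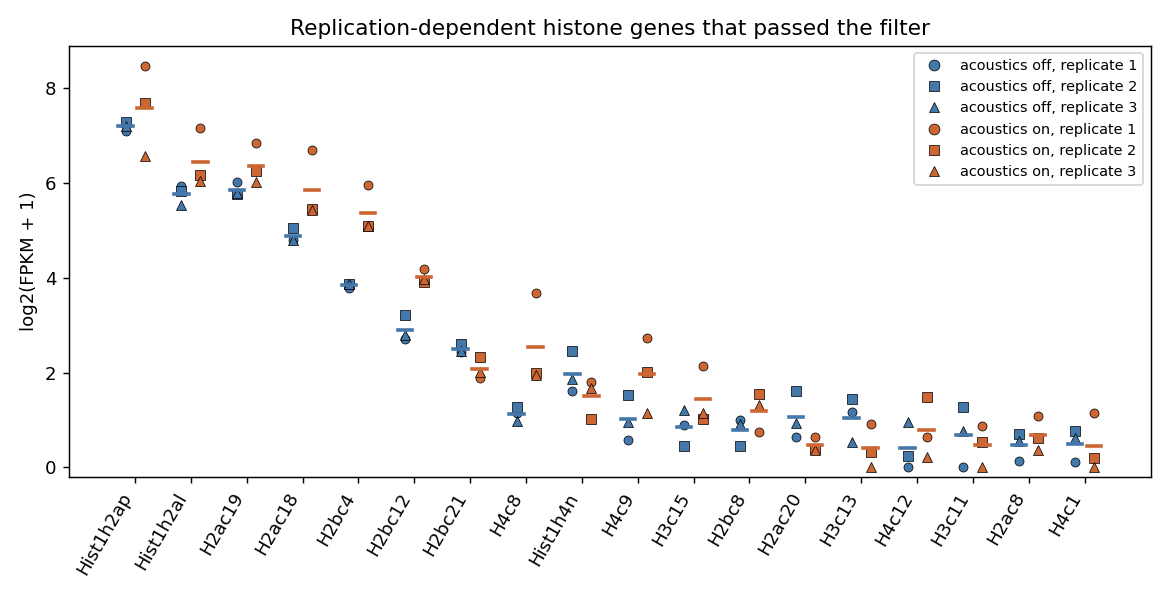
log2(FPKM + 1) (vertical axis) of the 18 replication-dependent histone genes that passed the filter, ordered by mean level; blue symbols are acoustics-off libraries, orange symbols acoustics-on libraries, the symbol shape gives the replicate, and bars are group means. H2bc4, H2bc12, H4c8, H2ac18 and Hist1h2al show 3 orange symbols above all blue ones. Acoustics-on replicate 1 is the highest of all libraries for Hist1h2ap, Hist1h2al, H2ac19 and H2ac18.

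H2bc4 (GENCODE Hist1h2bc, chromosome 13, 23684199 to 23692908, GRCm38), an H2B gene whose spliced annotated transcript of 1156 bases holds neither the stem-loop nor a poly(A) signal, stood at 12.8, 13.5 and 13.7 FPKM in the off libraries and at 60.6, 32.8 and 33.1 FPKM in the on libraries, in the order of the replicates. Every on library was thus above every off library, and acoustics-on replicate 1 was the highest. The off mean was 13.3 ± 0.45 FPKM and the on mean 42.2 ± 15.97 FPKM (SD, n = 3). On the log2(FPKM + 1) scale, used for all limma differences here, they differed by 1.53 (SE 0.24, limma adjusted p = 0.030). With the length trend divided out the difference was 1.34 (adjusted p = 0.0090), and without acoustics-on replicate 1 it was 1.24 (adjusted p = 0.0010). Without acoustics-off replicates 1, 2 and 3 the differences were 1.50, 1.54 and 1.55, with adjusted p = 0.16, 0.14 and 0.15, and without acoustics-on replicate 3 it was 1.67 with adjusted p = 0.075. The authors' deposited table gave H2bc4 a log2 fold change of 1.66 (adjusted p = 4.8e-07 there).

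H2bc12 (GENCODE Hist1h2bk, chromosome 13, 22035870 to 22036345), an H2B gene with an unspliced transcript of 476 bases that ends 30 bases after its stem-loop, was at 5.54, 8.21 and 5.96 FPKM in the off libraries. In the on libraries it was at 17.1, 14.1 and 14.7 FPKM, so the groups did not overlap and the 3 on libraries lay close together. Means were 6.57 ± 1.43 and 15.3 ± 1.60 FPKM, 1.12 apart on the log2 scale (SE 0.17, limma adjusted p = 0.027). It was 0.98 with the length trend divided out (adjusted p = 0.037) and 1.04 without acoustics-on replicate 1 (adjusted p = 0.018). Without acoustics-off replicates 1, 2 and 3 the adjusted p was 0.16, 0.069 and 0.16, and without acoustics-on replicate 3 it was 0.085, with differences from 1.02 to 1.27. From the authors' mean count, these levels correspond to about 60.9 to 90.2 normalised reads per off library and 154.6 to 187.9 per on library.

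The H2A partners of these H2B genes lay near 0. H2ac6, which starts 251 bases from H2bc4 in the other direction, averaged 0.045 ± 0.043 FPKM in the off libraries and 0.073 ± 0.063 in the on libraries, and was below the filter. H2ac12 starts 302 bases from H2bc12 and averaged 0.44 ± 0.57 and 0.19 ± 0.17 FPKM, also below the filter, with overlapping groups. In another head-to-head pair of an H2A and an H2B gene, Hist1h2ap averaged 145.4 ± 10.2 and 215.6 ± 129.1 FPKM, while its partner Hist1h2br was listed at 0 in all off libraries. In the pair H2ac20 and H2bc21 on chromosome 3, both genes were lower in every on library than in any off library, H2ac20 only from 0.564 FPKM in its lowest off library to 0.562 in its highest on library, without passing the test. The pair H2ac8 and H2bc8 was at or below 1.90 FPKM in each library, with overlapping groups. No test of a difference between partners was made. Of their 31-base words, 92.5% for H2ac12 and 89.5% for Hist1h2br also occur in other genes, against 16.9% for H2ac6. The values of H2ac12 and Hist1h2br thus also depend on how shared reads were split.

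H4c8 and H2ac18 were also higher in every on library, without passing the test on all 6 libraries. For H4c8, an H4 gene (GENCODE Hist1h4h, chromosome 13, 23531050 to 23531519), values were 1.22, 1.43 and 0.96 FPKM in the off libraries and 11.7, 2.99 and 2.85 FPKM in the on libraries. Acoustics-on replicate 1 thus stood far above the other on libraries. Its log2 difference was 1.40 (SE 0.45, limma adjusted p = 0.17), and 0.84 without that library (adjusted p = 0.018). H2ac18 (chromosome 3, 96245497 to 96246082) had 26.9, 32.1 and 26.6 FPKM in the off libraries and 102.7, 42.4 and 41.97 FPKM in the on libraries. The log2 difference of H2ac18 was 0.98 (SE 0.34, adjusted p = 0.20), and 0.56 without acoustics-on replicate 1 (adjusted p = 0.029). With only the length trend divided out, the limma adjusted p was 0.059 for H4c8 and 0.064 for H2ac18. Each passed in 4 of 18 alternative limma analyses, with adjusted p up to 0.49 for H4c8 and 0.53 for H2ac18. In the authors' deposited table both were called higher, H4c8 with a log2 fold change of 2.28 (adjusted p = 0.014 there) and H2ac18 with 1.13 (adjusted p = 0.036 there).

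The most abundant genes of the class differed widely among the on libraries, and none of the top 4 passed the test. Hist1h2ap, an H2A gene of chromosome 13, was at 134.9, 155.2 and 146.1 FPKM in the off libraries and at 350.7, 202.7 and 93.4 FPKM in the on libraries. The on libraries thus lay on both sides of the acoustics-off ones, and the log2 difference was 0.37 (SE 0.43, adjusted p = 0.62). For Hist1h2ap it was -0.076 without acoustics-on replicate 1 and 0.87 without acoustics-on replicate 3. Hist1h2al, the gene annotated as a processed pseudogene, had 60.3, 55.7 and 44.9 FPKM in the off libraries and 140.4, 70.2 and 64.3 FPKM in the on libraries, so its groups did not overlap, and they lay 0.68 apart on the log2 scale (SE 0.30, adjusted p = 0.27), or 0.33 without acoustics-on replicate 1. H2ac19 was at 63.5, 53.6 and 53.7 FPKM and at 113.0, 74.6 and 63.4 FPKM, where acoustics-on replicate 3 fell within the acoustics-off range (log2 difference 0.51, SE 0.22, adjusted p = 0.26, and 0.27 without acoustics-on replicate 1). Summed over all 35 genes, the class stood at 319.4, 343.8 and 310.2 FPKM in the off libraries and at 820.9, 457.2 and 326.4 FPKM in the on libraries. Acoustics-on replicate 3 was thus inside the acoustics-off range for the sum.

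A smaller number of replication-dependent genes lay lower in the on libraries. H2bc21, an H2B gene of chromosome 3 whose transcript of 2620 bases has a poly(A) signal, had 4.37, 5.10 and 4.47 FPKM in the off libraries and 2.69, 4.04 and 3.03 FPKM in the on libraries. Its groups did not overlap, but the log2 difference of -0.42 (SE 0.16) did not pass (adjusted p = 0.22), nor with the length trend divided out (-0.38, adjusted p = 0.15). H2ac20, an H2A gene beside it, had 0.56, 2.03 and 0.91 FPKM and 0.56, 0.31 and 0.30 FPKM (log2 difference -0.59, SE 0.24, adjusted p = 0.25, and -0.32 without acoustics-off replicate 2). The ratio of H2bc4 to H2bc21, both H2B genes, was 2.94, 2.65 and 3.06 in the off libraries and 22.5, 8.11 and 10.9 in the on libraries. This ratio was chosen after its values were seen.

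Groups did not overlap for 7 of the 18 tested replication-dependent genes, 5 higher and 2 lower in the on libraries, where 17.1% of all tested genes were higher and 17.7% lower in this sense. By histone, 6 H2A, 4 H2B, 3 H3 and 5 H4 genes of the class were tested, with median log2 differences of 0.44, 0.76, -0.22 and 0.38. The H3 genes tested, H3c11, H3c13 and H3c15, were at 3.40 FPKM or less in each library, and their groups overlapped. The 17 genes below the filter stayed at 1.08 FPKM or less in every library. Of these, H2bc6 and H3c4 were higher and H3c6 lower in all on libraries than in any off library, at levels under 0.57 FPKM. Across the 18 tested genes, acoustics-on replicate 1 was the highest on library for 15 and replicate 3 the lowest for 12, whereas over all tested genes these libraries were the highest for 40% and the lowest for 34.1%. The order was not particular to this class: among the 11 tested variants replicate 1 was the highest for 7 and replicate 3 the lowest for 8.

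**Figure D3:**
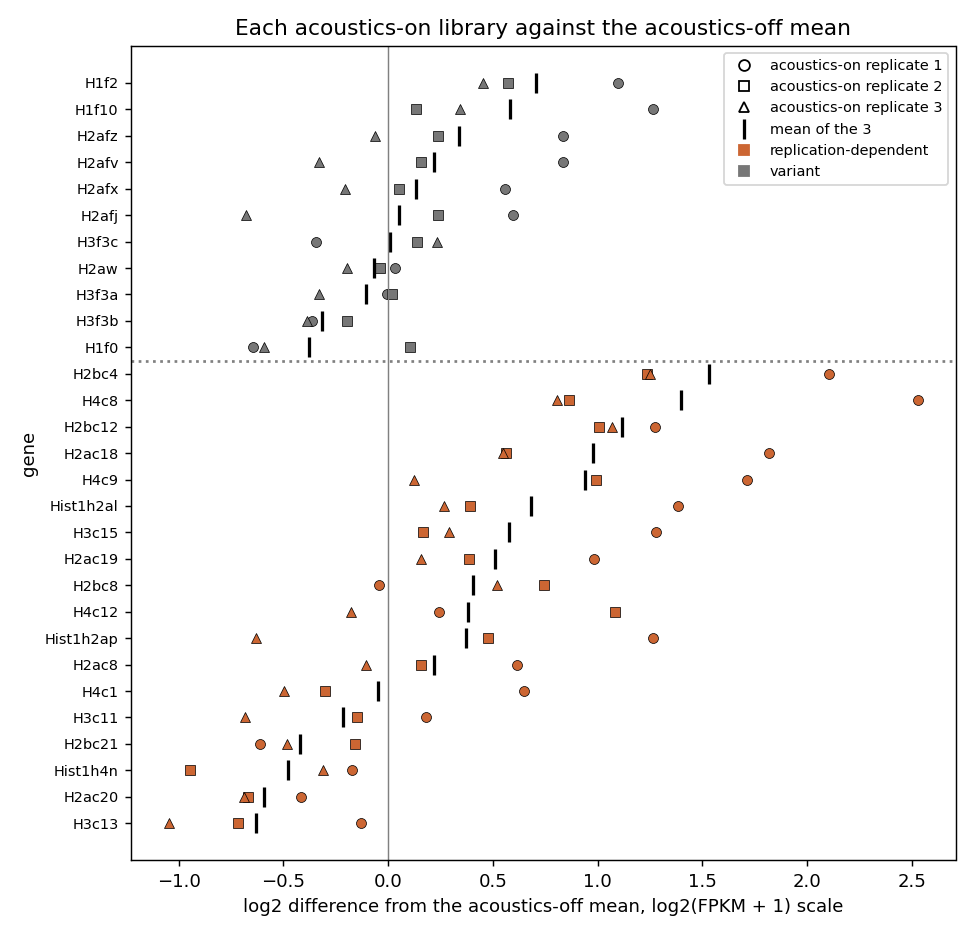
log2 difference of each acoustics-on library from the mean of the acoustics-off libraries (horizontal axis, log2(FPKM + 1) scale) for the 29 tested histone genes (vertical axis), variants above the dotted line and replication-dependent genes below; circles, squares and triangles are acoustics-on replicates 1, 2 and 3, and vertical strokes their mean. All 3 symbols lie right of 0 for H2bc4, H2bc12, H4c8, H2ac18 and H1f2, and also for Hist1h2al, H2ac19, H4c9, H3c15 and H1f10. For Hist1h2ap and H2afj replicate 1 lies right and replicate 3 left of 0.

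Among the variants, the linker histone genes H1f2 and H1f0 had differences of opposite sign, neither past the threshold. H1f2 (GENCODE Hist1h1c, chromosome 13, 23738808 to 23740367), which encodes H1.2 and has both a stem-loop and a poly(A) signal, was at 48.2, 51.3 and 50.0 FPKM in the off libraries and at 107.6, 74.5 and 68.5 FPKM in the on libraries. The groups did not overlap, and the log2 difference was 0.71 (SE 0.18, limma adjusted p = 0.11). It passed with the length trend divided out (0.58, adjusted p = 0.045) and without acoustics-on replicate 1 (0.51, adjusted p = 0.017), and in the authors' deposited table (log2 fold change 0.75, adjusted p = 0.014 there). Of 18 alternative limma analyses H1f2 passed in 5, with an adjusted p up to 0.43 in the others. H1f0, which encodes H1.0, a linker histone known from resting and differentiated cells, had 134.4, 145.5 and 137.8 FPKM in the off libraries and 88.6, 149.9 and 91.9 FPKM in the on libraries. Acoustics-on replicates 1 and 3 were low and replicate 2 was above the acoustics-off range (log2 difference -0.38, SE 0.21, adjusted p = 0.35, and -0.24 without acoustics-on replicate 1). The ratio of H1f2 to H1f0, chosen after its values were seen, was 0.36, 0.35 and 0.36 in the off libraries and 1.21, 0.50 and 0.75 in the on libraries. H1f10, which encodes the linker H1.10, was between 1.09 and 1.73 FPKM in the off libraries and at 4.80, 1.65 and 2.06 FPKM in the on libraries, and its groups overlapped (adjusted p = 0.31).

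The other linker genes, H1f1, H1f3, H1f4 and H1f5, were below the filter, at 0.96 FPKM or less in every library. H1f1 had 0.33, 0.82 and 0.54 FPKM in the off libraries and 0.047, 0 and 0.044 FPKM in the on libraries, which corresponds to about 7.13 to 17.5 normalised reads per off library and at most 1.01 per on library. The authors' deposited table called it lower (log2 fold change -4.22, SE 1.33, adjusted p = 0.026 there).

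The genes of the replacement histone H3.3, which is deposited at active genes outside S phase, were high in all libraries. H3f3a (chromosome 1, 180800832 to 180813943) was the most abundant histone gene of all, at 659.4, 696.4 and 670.3 FPKM in the off libraries and 672.6, 683.1 and 536.7 FPKM in the on libraries. Its log2 difference was -0.11 (SE 0.16, adjusted p = 0.69), with acoustics-on replicate 3 lowest, and 0.0056 without that library. H3f3b (chromosome 11, 116021912 to 116027962), which encodes the same protein, was at 360.9, 355.3 and 363.1 FPKM in the off libraries and at 279.6, 314.1 and 274.9 FPKM in the on libraries. Groups did not overlap for H3f3b, and its log2 difference of -0.31 (SE 0.13) did not pass (adjusted p = 0.25). It did not pass with the length trend divided out (-0.43, adjusted p = 0.051) or without acoustics-on replicate 1 (-0.29, adjusted p = 0.11). With both changes it was -0.35 (adjusted p = 0.024). H3f3b passed in 2 of 18 alternative limma analyses, with an adjusted p up to 0.59 in the others. The processed pseudogene H3f3c was between 3.16 and 5.22 FPKM, and 91.3% of its 31-base words occur in other genes. H3f3aos, the antisense RNA, stayed at 0.11 FPKM or less, and no source used here says whether counting used the strand.

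**Figure D4:**
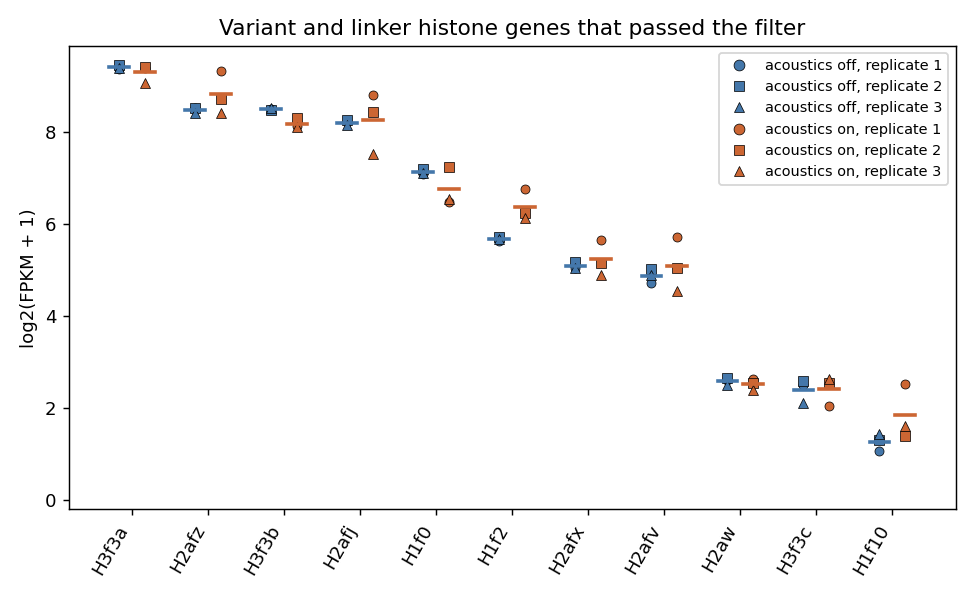
log2(FPKM + 1) (vertical axis) of the 11 variant and linker histone genes that passed the filter, ordered by mean level; blue symbols are acoustics-off libraries, orange symbols acoustics-on libraries, the symbol shape gives the replicate, and bars are group means. Groups separate for H1f2 (higher with acoustics on) and H3f3b (lower), and overlap for the other 9 genes.

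For the H2A genes counted as variants by symbol, the groups overlapped throughout. H2afz, the gene of H2A.Z.1, which marks promoters, was at 363.0, 365.2 and 340.4 FPKM in the off libraries and 636.8, 419.8 and 340.9 FPKM in the on libraries (log2 difference 0.34, SE 0.24, adjusted p = 0.43). The H2afz difference was 0.087 without acoustics-on replicate 1 and 0.54 without acoustics-on replicate 3. H2afj, which encodes H2A.J, was at 294.7, 304.6 and 281.1 FPKM and at 443.99, 345.6 and 182.98 FPKM. In H2afj acoustics-on replicate 1 was the highest and replicate 3 the lowest of all 6 libraries (log2 difference 0.052, SE 0.31, adjusted p = 0.93). The H2afj difference was -0.22 without acoustics-on replicate 1 and 0.42 without acoustics-on replicate 3. H2afv, the gene of H2A.Z.2, ranged from 25.5 to 31.4 FPKM in the off libraries and from 22.4 to 51.4 in the on libraries. H2afx ranged from 32.2 to 35.3 and from 28.6 to 49.3 FPKM, and H2aw, an H2A gene of chromosome 11, from 4.67 to 5.29 and from 4.26 to 5.17 FPKM.

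Dividing out the length trend lowered the differences of the most abundant members. For H2afz the value went from 0.34 to 0.13, for H2afj from 0.052 to -0.16, for H3f3a from -0.11 to -0.31 and for H2bc4 from 1.53 to 1.34. The median over the tested replication-dependent genes went from 0.39 to 0.34, and that over the variants from 0.052 to -0.083. H2bc4 and H2bc12 passed before and after the correction, and H1f2 passed after it.

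**Figure D5:**
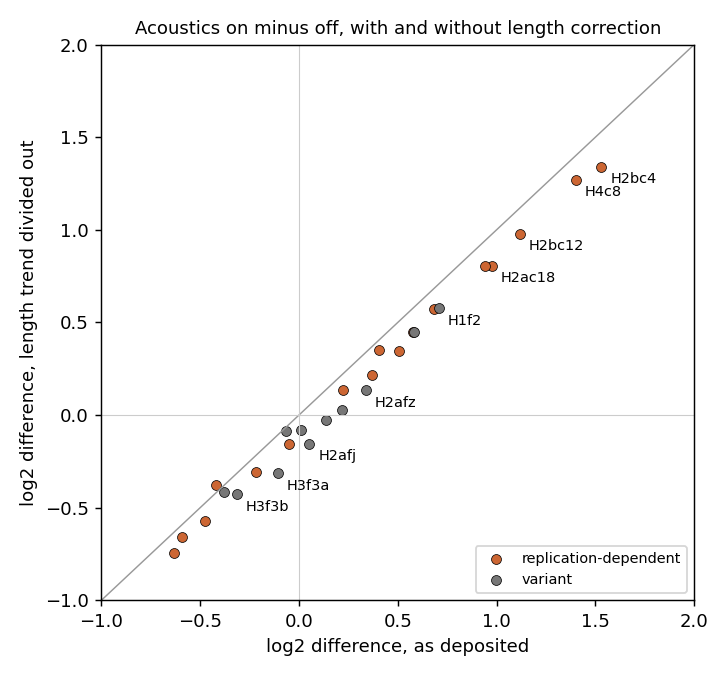
log2 difference between acoustics on and off with the length trend of each library divided out (vertical axis) against the difference in the values as deposited (horizontal axis) for the histone genes tested in both, orange for replication-dependent genes and grey for variants; the diagonal marks equal values. Most points lie below the diagonal, and H2bc4 keeps a difference of 1.34 and H2bc12 of 0.98.

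Genes that act with the histones were read from lists. None of 17 tested genes for the transcription and 3′ end processing of histone mRNAs passed by limma, with a median log2 difference of -0.14. At an unadjusted p under 0.05, 2 were higher and 0 lower by limma, where 10.5% of all tested genes were higher and 9.16% lower. Groups did not overlap for 2 that were higher and 3 that were lower, against 17.1% and 17.7% of all tested genes. The authors' deposited table had 1 higher and 0 lower, where 5.08% of genes with an adjusted p were higher and 2.49% lower. The cyclin gene Ccne1, whose product with CDK2 starts S phase and histone transcription, was at 4.66, 5.67 and 4.62 FPKM in the off libraries and 12.7, 7.92 and 9.66 FPKM in the on libraries, without overlap (log2 difference 0.87, SE 0.19, adjusted p = 0.073). Ccne1 was the gene called higher in the authors' deposited table (log2 fold change 1.02, adjusted p = 0.00096 there). Ccne2 averaged 4.01 ± 1.14 and 6.29 ± 1.10 FPKM (adjusted p = 0.23). Casp8ap2, a coactivator of histone gene transcription, averaged 2.17 ± 0.83 and 1.33 ± 0.40 FPKM (adjusted p = 0.31), and the transcription factor gene Yy1 25.2 ± 1.66 and 20.7 ± 3.15 FPKM (adjusted p = 0.31).

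Of 28 S phase genes, all tested, 0 passed by limma (5 higher and 1 lower at an unadjusted p under 0.05, and 2 higher and 0 lower in the authors' deposited table), and the median log2 difference was 0.23. Groups did not overlap for 7 that were higher and 2 that were lower. These counts stand beside 10.5% and 9.16% of all tested genes at that unadjusted p, and 17.1% and 17.7% without overlap. In the authors' table the shares were 5.08% and 2.49% of genes with an adjusted p. Rrm2, a ribonucleotide reductase subunit, was at 15.4, 15.9 and 16.2 FPKM in the off libraries and 29.4, 23.0 and 23.5 FPKM in the on libraries (log2 difference 0.64, SE 0.13, adjusted p = 0.070). Rrm2 was called higher in the authors' deposited table (log2 fold change 0.68, adjusted p = 0.0023 there), as was Ccne1. Pcna, the sliding clamp of DNA polymerases, averaged 156.6 ± 9.12 and 248.3 ± 68.4 FPKM (adjusted p = 0.18), and the polymerase gene Pole 2.89 ± 0.12 and 4.45 ± 1.08 FPKM (adjusted p = 0.21). Ccne1 is on this list too.

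Histone chaperones, which carry histones to DNA, gave 0 calls among 26 tested by limma and in the authors' deposited table (2 higher and 3 lower at an unadjusted p under 0.05), with a median log2 difference of 0.07. Over all tested genes 10.5% were higher and 9.16% lower at that p. Groups did not overlap for 8 chaperone genes that were higher and 6 that were lower, against 17.1% and 17.7% of all tested genes. Hjurp, the chaperone of the centromeric H3 variant, was at 17.2, 17.1 and 18.3 FPKM in the off libraries and 6.53, 11.4 and 12.9 FPKM in the on libraries (log2 difference -0.77, adjusted p = 0.16). Atrx, which with DAXX places H3.3 at repeats, averaged 23.7 ± 1.86 and 16.5 ± 4.76 FPKM (adjusted p = 0.24), and Ep400, a subunit of a complex that exchanges H2A.Z, 12.8 ± 2.40 and 6.51 ± 3.57 FPKM (adjusted p = 0.22). Dnajc9, a chaperone of newly made H3 and H4, averaged 12.8 ± 1.26 and 17.5 ± 3.01 FPKM (adjusted p = 0.23). None of the 7 tested RNAs without a poly(A) tail passed by limma or in the authors' deposited table (1 higher and 1 lower at an unadjusted p under 0.05). Groups did not overlap for 1 of them, which was lower. The shares over all tested genes are those given for the chaperones. Rmrp was at 3.85, 0 and 0 FPKM in the off libraries and 6.87, 5.13 and 3.73 FPKM in the on libraries (adjusted p = 0.18), and the small Cajal body RNA gene Scarna2 averaged 2.21 ± 0.38 and 1.52 ± 0.24 FPKM (adjusted p = 0.25). Rpph1, the RNA of ribonuclease P, averaged 1.20 ± 1.31 and 2.49 ± 0.93 FPKM (adjusted p = 0.31), and Rn7s1 83.02 ± 26.8 and 99.6 ± 9.001 FPKM (adjusted p = 0.46).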

How the data were processed

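RNA-seq libraries of RAW264.7 cells, 3 with acoustics off and 3 with acoustics on, were compared. For every gene, the authors deposited an FPKM value in each library. In a second table the authors deposited the mean normalised count of each gene (a signal, not raw counts), its log2 fold change and standard error, its score (the Wald statistic) and raw and adjusted p-values, the adjusted ones missing for 1586 genes. The submitters' processing notes name DESeq2 1.38.2, Salmon 1.4.0, STAR 2.7.11 and Trim Galore 0.6.8, and GRCm38 as build. How each was run is not stated there.

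Genes that reached 0.5 FPKM in 3 or more libraries entered limma 3.58.1 (R 4.3.3) on log2(FPKM + 1), with a trended, robust variance prior, no replicate term and Benjamini-Hochberg adjustment over all tested genes at 0.05. Fold changes on this scale understate the change of low genes. The fit was checked on simulated data. Low values were near whole reads (within 0.05) for 56.4% to 66.9% of values under 15, so reads were not recovered and no count test was run. The length correction used the deposited mean count over the mean FPKM as length and divided a loess trend (span 0.5, fitted on genes whose mean FPKM reached 1) out of each library.

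Members and lists were chosen with earlier results of these data known. Any member may be named. Values in every library are given for members past the threshold, with an adjusted p under 0.25 or among the 4 most abundant of each class. In the lists of processing, chaperone, S phase and non-polyadenylated RNA genes the 4 tested genes with the smallest p are named. Members were matched to GENCODE M21 (GRCm38) by symbol or gene ID, 52 of 52. Alternatives changed the pseudocount, filter, scaling, variance prior, library weights, length correction, replicate term and class split, or left out 1 library.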

Additional observations from a re-analysis of the deposited data

How the results depend on the processing

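The number of replication-dependent histone genes that rose, 2 in the main analysis, was 4 without acoustics-on replicate 1 (H2bc4, H2bc12, H2ac18 and H4c8), also with the filter kept from all libraries, a setting chosen after seeing the data, and 4 with the length correction and that library left out. It ranged from 0 to 4 over the 6 analyses that left out 1 library, with 0 without any 1 acoustics-off library or without acoustics-on replicate 3. It was 1 with no filter on low values, where H2bc4 had an adjusted p = 0.058. The replicate numbers did not pair the samples (correlations of same-numbered deviations -0.073, -0.020 and -0.0039). With the replicate block the count was 1, and 1 with the length correction as well, and H2bc12 then had an adjusted p = 0.057 and 0.058. The number of variants that rose, 0, was 1 (H1f2) with the length correction, 1 without acoustics-on replicate 1 under either filter, and 1 with both, when 1 (H3f3b) fell. Left-out libraries gave 0 to 1. The median log2 difference of the variants, 0.052, was -0.083 with the length correction, with or without the replicate block, -0.15 with that correction and acoustics-on replicate 1 left out, -0.087 with that library left out and the filter kept, and from -0.087 to 0.30 over the left-out libraries. The cause was not tested. That of the replication-dependent genes, 0.39, was 0.097 with no filter, 0.25 without acoustics-on replicate 1 with the filter kept, 0.65 with the smaller pseudocount, 0.68 with the stricter filter and 0.33 to 0.67 over the left-out libraries. Differences that changed sign, with no sign-changed value past the threshold, were those of Hist1h2ap (-0.076 to 0.87 over the left-out libraries, -0.076 without acoustics-on replicate 1 with the filter kept and -0.015 without it with the length correction), H2afj (-0.22 to 0.42 over the left-out libraries, with -0.22 without acoustics-on replicate 1 and -0.041 without acoustics-on replicate 2, -0.16 with the length correction, with or without the replicate block, and -0.26 with that correction without acoustics-on replicate 1) and H3f3a (-0.17 to 0.0056 over the left-out libraries, and 0.010 with library weights).

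Over all genes, 175 rose and 67 fell. These were 116 and 34 with no filter, 407 and 281 with the length correction, 753 and 640 with that correction and acoustics-on replicate 1 left out, 554 and 359 with that library left out and the filter kept, and 14 to 498 and 3 to 357 over the left-out libraries. Library weights gave 3254 and 3272, with 10 replication-dependent genes higher and 4 lower and 3 variants higher and 1 lower. Their estimation stopped before it converged and put a weight of 13.4 on acoustics-on replicate 2 against 0.062 on replicate 1. Counting H1f1 to H1f5 and H4f16 as replication-dependent, with H2aw left among the variants, changed neither class's count in the main limma analysis. The variants then had 0 higher and 0 lower in the authors' deposited table, and the calls of H1f2 above would count with the replication-dependent genes. H4c8 rests on about 10.4 to 15.4 normalised reads per acoustics-off library and H1f1 on at most 17.5.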
